A study of Rattus norvegicus with 24 samples.

Results

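The 91 transcripts described here had at least 4 times the translational efficiency in brain that they had in liver of young rats. They were chosen by measured values, namely the young libraries of both assays, from 22938 transcripts in all. Levels are in CPM, the count of a transcript scaled to the sum of all counts in its library. A member had a mean of at least 5 CPM in young RNA-seq of both organs, and a deposited length-like value, which no header defines, above 80 and below 2000. These 2 conditions left 7420 transcripts, called the comparison transcripts here. Efficiency was the mean footprint CPM plus 0.05, divided by the mean RNA-seq CPM, and the efficiency ratio was that of brain over that of liver. A ratio of at least 4 was reached by 1.23% of the comparison transcripts, and these are the members.

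Brain and liver came from 3 young (6 months) and 3 old (24 months) rats. The labels give no treatment, strain or sex. Each of the 8 groups held 3 libraries, either RNA-seq of total RNA, prepared with a stranded kit, or ribosome profiling of the fragments that RNase I left on pelleted ribosomes. Sample titles carry one animal code across both organs and both assays. No table used here links these identifiers to genes, and transcripts go by identifier alone with no function stated.

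Ribosome profiling sequences the stretches of mRNA that ribosomes shield from a nuclease, so a footprint count follows how many ribosomes sit on a transcript. Dividing it by the RNA-seq count gives translational efficiency, the ribosome load per unit of message. The load is known to depend on how readily ribosomes start on the message and how fast they travel along it, and mRNA held in storage particles, as in neurons, or awaiting a signal, as with iron-responsive messages, carries few. Brain and liver were homogenised whole, so fewer cells of a type and less RNA per cell cannot be told apart.

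RNA-seq libraries held 14281043 to 28664906 counts and footprint libraries 5259326 to 17584871. As a check of the organ labels, the 50 transcripts most enriched in young liver over young brain RNA-seq were summed in every library. Young RNA-seq chose the 50, so only the other libraries serve as a check. The 50 took 310552 to 420396 CPM in liver RNA-seq. They took 17.1 to 134 CPM in 5 of the 6 brain RNA-seq libraries, but 15798 CPM in the brain of old animal 2. In ribosome profiling they took 34.1 to 69.8 CPM in the young brain libraries. They took more in every old brain library, at 835 CPM in animal 1, 535 CPM in animal 3 and 24155 CPM in animal 2. Brain-enriched transcripts chosen in the same way held 7.53 to 14.7 CPM in liver RNA-seq against 41691 to 45851 CPM in brain. Brain of old animal 2 stands apart, so the main results on old animals are given with and without it. What part these transcripts have in the members' values of that animal was not tested.

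Footprints set the members apart more than RNA did. In young rats the members' median log2 brain over liver difference was 2.49 in footprints, where that of the comparison transcripts was 1.19. In RNA-seq the members' median was 0.14 and the comparison median 0.91. Relative to the comparison transcripts the members thus stood 1.31 higher in brain footprints and 0.77 lower in brain RNA, on the log2 scale. These values chose the members and are a description. Over the comparison median lay 82 of the 91 members in footprints, and under it lay 63 in RNA-seq.

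Efficiency of the members stood below that of the comparison transcripts in liver and above it in brain. The members' median efficiency in young liver was 0.235 against 0.728 for the comparison transcripts, and 67 of the 91 lay in the lowest 25% of comparison values. In young brain the medians were 1.34 and 0.885, and 48 members lay in the top 25%. The plot of median levels by library shows the same 2 features in CPM. Young liver footprints had member medians of 6.37 to 6.98 CPM per library, under comparison medians of 15.1 to 15.98 CPM. Young brain footprints had member medians of 49.0 to 52.0 CPM, over comparison medians of 36.5 to 36.8 CPM.

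**Figure D1:**
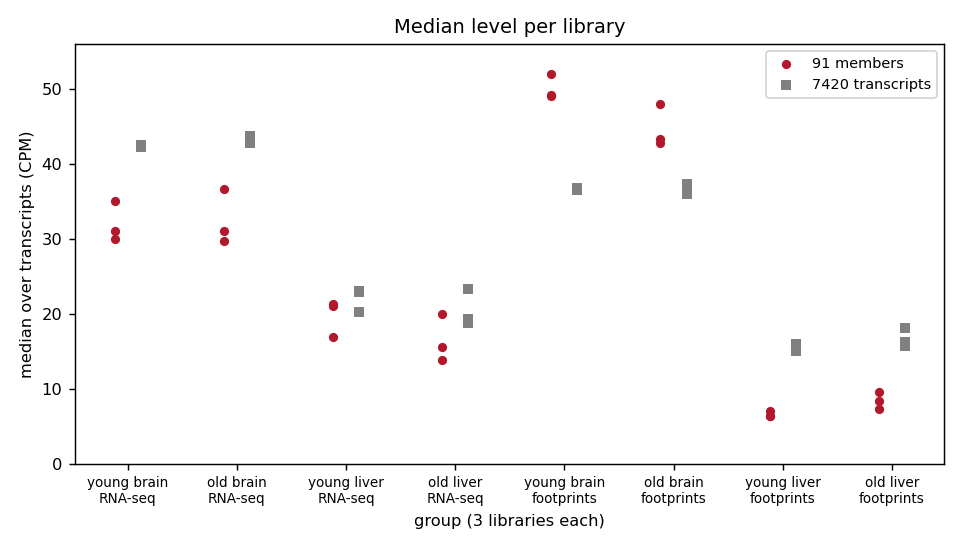
Median CPM over the 91 members (circles) and over the 7420 comparison transcripts (squares) in each of the 24 libraries, 3 per group. Member medians lay above the squares in every brain footprint library and below them in every liver footprint library.

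The single-assay organ differences depend on scaling, and the contrast with the comparison transcripts kept its direction. With column sums as the total, 48 members had more RNA in young brain and 43 more in young liver, but with TMM scaling (trimmed mean of M-values, which discounts a few very abundant transcripts) 25 and 66 did. TMM moved the comparison median of young RNA-seq from 0.91 to -0.24. The members stood 0.76 below that median with TMM and 0.77 below it with column sums. In footprints they stood 1.48 and 1.31 above it. For the efficiency ratio the scaling moved the young comparison median from 0.27 to -0.11 on the log2 scale, and the rule applied to TMM-scaled CPM would choose 43 transcripts, 35 of them among the 91.

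The largest young ratio belonged to ENSRNOT00000064242, at 138. Its young RNA-seq levels were 510.4, 511 and 556 CPM in brain and 117, 130.1 and 106 CPM in liver. Its young footprints were 183, 202 and 191 CPM in brain, but 0.253, 0.132 and 0.398 CPM in liver, from 3, 2 and 7 counts. All brain libraries were thus far above all liver libraries in footprints, by a margin that rests on 12 liver counts.

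In old rats ENSRNOT00000064242 had RNA-seq levels of 458, 457 and 504 CPM in brain and 41.0, 78.0 and 62.7 CPM in liver. Old footprints were 152, 172 and 183 CPM in brain and 1.31, 2.14 and 1.30 CPM in liver, from 14, 27 and 20 counts. The organs did not overlap in either assay. Its efficiency ratio in old rats was 13.3, and the fitted log2 difference in efficiency was 3.70 (SE 0.362, edgeR adjusted p = 0.000131, brain over liver in 3 of 3 animals). It was called in each of the 9 alternatives, with log2 values from 3.62 to 3.88 and adjusted p from 3.49e-20 to 0.0248. The fitted organ difference was 5.47 in footprints (SE 0.241, edgeR adjusted p = 1.57e-07) and 1.66 in RNA-seq (SE 0.244, edgeR adjusted p = 0.000622), so RNA was higher in brain too, by less than footprints were.

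ENSRNOT00000051951 came next, with a young ratio of 21.4 and very few liver footprints. Its young footprints were 10.3, 8.85 and 4.59 CPM in brain and 0.253, 0.329 and 0.0569 CPM in liver, from 3, 5 and 1 counts, while RNA-seq stood at 65.3 ± 5.98 CPM in brain and 46.2 ± 2.16 CPM in liver (SD, n = 3). Old footprints were 8.56, 5.31 and 11.7 CPM in brain and 0.467, 0.316 and 0.390 CPM in liver, again without overlap. The fitted log2 difference in efficiency in old rats was 3.05 (SE 0.534, edgeR adjusted p = 0.00412, brain over liver in 3 of 3 animals). In footprints the fitted organ difference was 3.16 (SE 0.454, edgeR adjusted p = 0.000218). In RNA-seq it was 0.00093 (SE 0.252, edgeR adjusted p = 0.997) with the TMM scaling of the fit, although column-sum CPM placed brain 2.48-fold above liver. Without old animal 1 the efficiency call was lost (log2 3.20, edgeR adjusted p = 0.103). It held in the other 8 alternatives.

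At the other end, the 2 members just inside the ratio of 4 were ENSRNOT00000066255 at 4.02 and ENSRNOT00000005775 at 4.05. The 2 transcripts just outside were ENSRNOT00000045192 at 3.9995 and ENSRNOT00000031891 at 3.99. In old rats those inside had ratios of 2.49 and 1.001, and those outside 1.82 and 2.18.

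Whether the difference holds in old rats was asked of the 12 old libraries, which the rule did not use. In them, 62 of the 91 members had higher efficiency in brain and 0 higher in liver (edgeR, interaction of organ and assay, adjusted p under 0.05 over 14938 transcripts). Of all transcripts tested, 5.67% were called higher in brain and 4.49% higher in liver, and of the comparison transcripts 7.71% and 7.05%. The members' median log2 difference was 1.44, where all tested transcripts had a median of 0.05 and the comparison transcripts -0.02. Of the members, 90 had a positive value, and all 91 passed the count filter. The 62 called members had a median of 1.68 and the 29 others a median of 1.004. Leaving out old animal 1, 2 or 3 lowered the count to 28, 39 or 57, while the share of all transcripts called higher in brain fell to 0.724%, 1.53% and 4.26%. The member medians were then 1.53, 1.37 and 1.62. Without old animal 2, 25 members had a ratio of at least 4, and 21 of them were among the 25 found with all 3 old animals.

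With column sums, the size of the difference was smaller in old than in young rats for nearly all members. The median efficiency ratio was 4.92 in young and 2.86 in old rats, beside 1.20 and 1.04 for the comparison transcripts. With TMM scaling the members' median log2 ratio was 1.93 in young and 1.43 in old rats. The comparison median was then -0.11 in young and -0.03 in old rats, so its fall depended on scaling. In old rats 25 members had a ratio of at least 4, as did 0.364% of comparison transcripts, and 51 lay between 2 and 4. A ratio of at least 2 was found for 76 members and 4.89% of comparison transcripts, and a ratio above 1 for all 91 and 54.6%. By column sums the ratio was lower in old than in young rats for 85 members and for 71.1% of comparison transcripts. Since the young values chose the members, no test of age was made and the fall is given as a description. The transcripts chosen by the opposite rule, with at least 4 times the efficiency in young liver, numbered 19, and 7 of them kept a 4-fold difference in old rats.

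**Figure D2:**
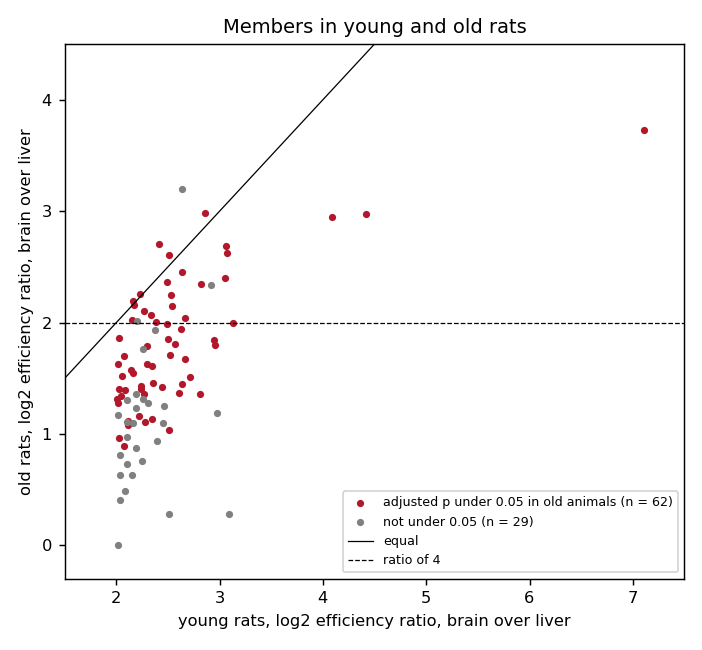
Each point is 1 of the 91 members, with the log2 efficiency ratio (brain over liver, column-sum CPM, means of 3 animals) in young rats on the horizontal and in old rats on the vertical axis. Points lie below the line of equality for 85 members, and 62 had an adjusted p under 0.05 in old rats.

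More of the members with a larger young ratio reached 4 in old rats too. Of the 47 members with a young ratio from 4 to 5, 6 had a ratio of at least 4 in old rats, and their median was 2.49. Of the 21 from 5 to 6, 7 did, with a median of 3.49, and of the 23 above 6, 12 did, with a median of 4.10. Among the comparison transcripts that are not members, 2 of 7329 reached 4 in old rats. These were ENSRNOT00000050722, from 2.73 in young to 5.09 in old rats, and ENSRNOT00000029136, from 1.98 to 4.49, both named after their values were seen.

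Values of single animals are a description, since the means of the young ones chose the members. In young animals 1, 2 and 3, 66, 79 and 72 members had a ratio of at least 4, with medians of 4.99, 5.56 and 4.87. In old animals 1, 2 and 3, 25, 33 and 21 did, with medians of 3.02, 2.95 and 2.92. The comparison medians were 1.13 to 1.26 in young and 1.01 to 1.09 in old animals. Of the comparison transcripts, 1.51%, 2.09% and 1.67% reached 4 in the young animals and 0.674%, 0.701% and 0.391% in the old ones. Old animal 2, whose brain libraries held the most liver-enriched transcripts, thus had a member median between those of the other 2 old animals. A ratio of at least 4 was found in all 3 young animals for 44 members. A ratio of at least 2 was found in all 6 animals for 57 members and of at least 4 for 10. The young animals among the 6 chose the members, and no comparison share was set beside these counts. The lowest ratio of these 10 in any animal ranged from 4.29 to 10.05, the last being ENSRNOT00000064242.

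**Figure D3:**
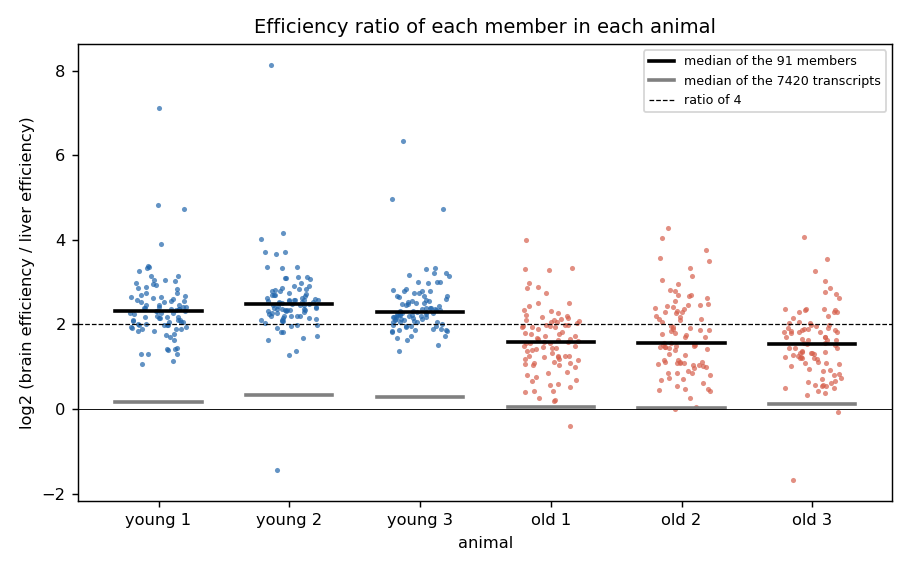
Log2 efficiency ratio (brain over liver) of each of the 91 members in each of the 6 animals, with the member median (black bar) and the median of the 7420 comparison transcripts (grey bar). Member medians lay above the grey bar in all 6 animals and above the dashed line at a ratio of 4 in the 3 young animals.

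Efficiency in the 3 old brains exceeded that in the 3 old livers without overlap for 83 members and for 28.8% of comparison transcripts. The reverse held for 0 members, and no comparison share was set beside that count. Without old animal 2, brain exceeded liver without overlap for 86 members and 38.3% of comparison transcripts, and the members' median ratio was 2.81. Of the 91, 88 had a ratio above 1 in each old animal, and the 3 exceptions were ENSRNOT00000005775, ENSRNOT00000033843 and ENSRNOT00000042098. Taken singly, old animals 1, 2 and 3 had a ratio above 1 for 52.9%, 51.1% and 59.1% of comparison transcripts. No comparison share over all 3 old animals together was set beside the 88.

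ENSRNOT00000005775 had the lowest fitted difference. Its young liver RNA-seq stood at 41.6, 90.9 and 68.3 CPM and its old liver RNA-seq at 16.7, 24.6 and 20.4 CPM. Liver footprints were 13.9, 10.6 and 14.5 CPM in young and 14.2, 17.4 and 11.6 CPM in old rats, so young and old overlapped in footprints and not in RNA. Brain held 8.90 ± 0.967 and 8.41 ± 0.228 CPM of RNA and 6.97 ± 1.38 and 5.87 ± 0.322 CPM of footprints in young and old rats (SD, n = 3). The ratio was 2.46, 5.51 and 4.24 in the young animals and 0.752, 1.03 and 1.29 in the old ones. The fitted log2 difference in old rats was -0.07 (SE 0.308, edgeR adjusted p = 0.988), from -0.15 to 0.13 over 9 alternatives.

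ENSRNOT00000033843 had a fitted log2 difference of 0.11 in old rats (SE 0.74, edgeR adjusted p = 0.99996) that rested on few footprints. Old brain gave 10, 12 and 3 counts and old liver 8, 4 and 10. Young brain had given 13, 3 and 18 and young liver 1, 2 and 3. Its ratio was 8.51 in young and 1.22 in old rats.

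By assay, the members stood apart in old rats in the same directions as in young rats. Relative to the comparison median the members stood 1.29 higher in brain over liver footprints and 0.34 lower in brain over liver RNA on the log2 scale, against 1.31 and 0.77 in young rats. With TMM scaling these values were 1.29 and 0.34 in old rats and 1.48 and 0.76 in young rats, so the footprint contrast was smaller in old rats with TMM and nearly level with column sums. Without old animal 2, the difference from the comparison median was -0.21 in RNA-seq and 1.35 in footprints, with column sums. The scatter of the 2 assays shows this as a vertical offset of the members from the cloud.

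**Figure D4:**
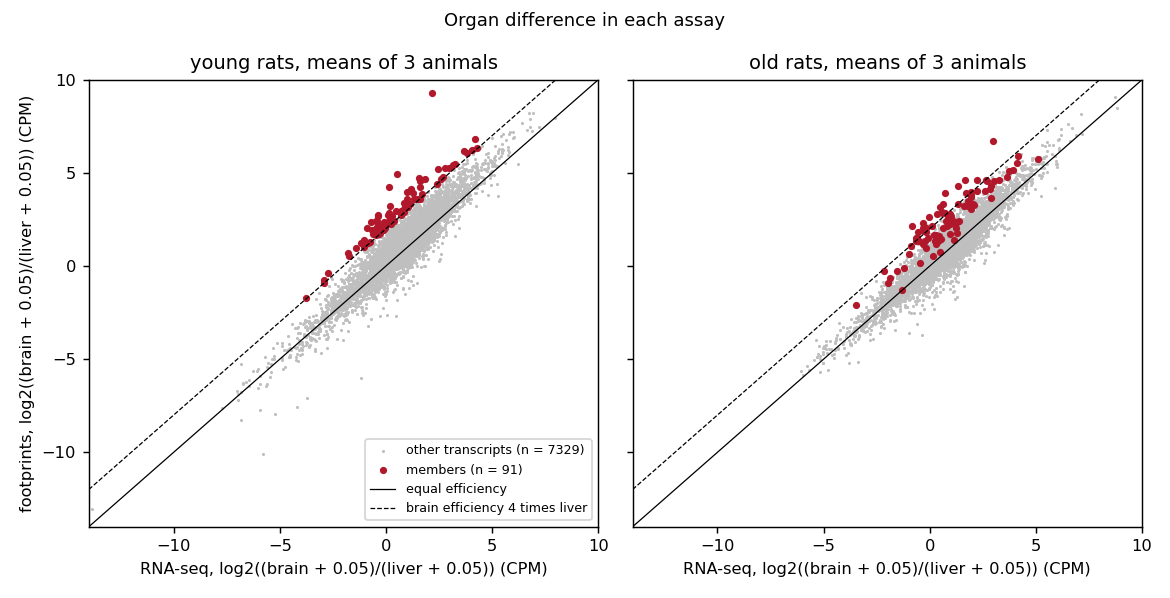
Log2 brain over liver difference in RNA-seq (horizontal) and footprints (vertical) for the 91 members and the 7329 other comparison transcripts, in young (left) and old (right) rats, with 0.05 CPM added to each mean. The dashed line marks a brain efficiency 4 times that of liver; the rule places the young members on it, within the small effect of the added constant, or above it, and 25 of 91 lay there in old rats.

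The fits on old rats gave calls for each assay. In footprints 57 of the 88 members tested were higher in brain and 9 higher in liver (edgeR, adjusted p under 0.05), where 41.1% and 30.9% of all 13910 transcripts tested, and 28.2% and 38.6% of comparison transcripts, were. In RNA-seq 25 of 91 were higher in brain and 46 higher in liver, where 44.1% and 36.5% of all 14587 tested, and 30.6% and 46.9% of comparison transcripts, were. The share of members with more RNA in one organ was thus close to the comparison share, and the footprint share was not. The 3 members with too few footprints to be tested there were ENSRNOT00000033843, ENSRNOT00000046112 and ENSRNOT00000006485.

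Read together, the calls fall into a few patterns, given with the share of the 7390 comparison transcripts tested in both assays that showed the same one. Footprints were higher in brain while RNA was higher in liver for 15 members (1.08% of comparison transcripts), with a median old ratio of 4.45. An efficiency call nearly follows from that pattern: all 15 members had one, as did 75 of the 80 comparison transcripts, members included. Both assays were higher in brain for 25 members (23.1%), of which 21 were called in efficiency, with a median ratio of 2.69. RNA was higher in liver with no footprint call for 20 (10.9%), of which 14 were called, with a median ratio of 2.89. Footprints were higher in brain with no RNA call for 17 (4.05%), of which 10 were called, with a median ratio of 2.57. Both assays were higher in liver for 9 (34.9%), of which 2 were called, with a median ratio of 2.38. In the patterns after the first, in order, 11.4%, 16.2%, 29.8% and 3.22% of the comparison transcripts were called, members included. Without old animal 2 these 5 patterns held 14, 24, 20, 19 and 10 members, of which 13, 11, 8, 6 and 1 were called in efficiency. Of the comparison transcripts in each, 72.5%, 3.38%, 3.80%, 7.5% and 0.694% were then called.

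The 2 members highest in old brain over liver RNA were ENSRNOT00000045577 and ENSRNOT00000002678. ENSRNOT00000045577 had RNA-seq levels of 643, 623 and 630.5 CPM in old brain and 14.0, 18.9 and 21.5 CPM in old liver. Its footprints were 528, 485 and 509 CPM in brain and 7.66, 10.04 and 10.3 CPM in liver. The organs were far apart in both assays, by 3.84 in RNA-seq (SE 0.153, edgeR adjusted p = 1.17e-06) and 4.49 in footprints (SE 0.174, edgeR adjusted p = 9.39e-08) on the log2 scale. The difference in efficiency, 0.55 (SE 0.194), did not pass (edgeR adjusted p = 0.0971, from 0.0125 to 0.267 over 9 alternatives), although its ratio was above 1 in all 3 old animals, at 1.48, 1.46 and 1.67.

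ENSRNOT00000002678 had RNA-seq levels of 159, 162 and 157 CPM in old brain and 6.73, 9.59 and 9.91 CPM in old liver. Its footprints were 136, 130.3 and 137 CPM in brain and 2.15, 1.74 and 2.73 CPM in liver. Both assays separated the organs, with log2 differences of 2.90 in RNA-seq and 4.66 in footprints. The efficiency difference was 1.66 (SE 0.204, edgeR adjusted p = 0.000493, brain over liver in 3 of 3 animals) and was called in all 9 alternatives.

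ENSRNOT00000041735 and ENSRNOT00000067549 were the 2 members highest in old liver over brain RNA. ENSRNOT00000041735 had 84.1, 72.9 and 67.1 CPM in old liver RNA-seq against 5.75, 8.29 and 6.16 CPM in old brain, and 164, 153 and 108 CPM against 33.8, 34.8 and 32.2 CPM in footprints. Liver was thus above brain in every library of both assays, but by less in footprints (log2 difference -3.35, SE 0.223) than in RNA-seq (-4.77, SE 0.234). Its efficiency was 1.31 higher in brain on the log2 scale (SE 0.32, edgeR adjusted p = 0.0244, brain over liver in 3 of 3 animals), a call lost without old animal 1 (adjusted p = 0.208) or 2 (0.104).

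ENSRNOT00000067549 had 51.8, 75.03 and 36.8 CPM in old liver RNA-seq and 11.0, 14.5 and 10.5 CPM in old brain. Its footprints overlapped between the organs, at 12.8, 24.0 and 10.5 CPM in liver and 13.1, 12.7 and 14.0 CPM in brain. With the TMM scaling of the fit, footprints were called higher in liver (log2 difference -1.54, SE 0.34, edgeR adjusted p = 0.0033). Its efficiency difference of 1.87 (SE 0.548) did not pass in edgeR (adjusted p = 0.0568) but did with the animal as a block (adjusted p = 0.00607), with DESeq2 (0.00529), with a minimum count of 50 (0.048) and without old animal 2 (0.035). Over all 9 alternatives its adjusted p ran from 0.00529 to 0.393, and brain was over liver in 3 of 3 animals.

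The members with the highest RNA-seq CPM, a level that is not per length, were ENSRNOT00000042098 and ENSRNOT00000001383. For ENSRNOT00000042098, liver RNA-seq fell from 2276, 2794 and 2905 CPM in young to 951, 1361 and 945 CPM in old rats, as a description. Its liver footprints were 277, 208 and 225 CPM in young and 323, 413 and 458 CPM in old rats. The ages did not overlap in either liver assay, and they moved in opposite directions. Brain RNA-seq was 1304 ± 61.1 and 1192 ± 56.3 CPM, and brain footprints 476 ± 139 and 581 ± 86.3 CPM, in young and old rats (SD, n = 3). The ratio went from 4.10 to 1.33, and the efficiency difference in old rats was 0.37 (SE 0.299, edgeR adjusted p = 0.528, and at least 0.271 in all 9 alternatives).

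ENSRNOT00000001383 had old RNA-seq levels of 679, 632 and 622 CPM in liver and 333, 327 and 329.8 CPM in brain. Its old footprints were 166, 154 and 288 CPM in liver and 331, 312 and 307 CPM in brain. By column-sum CPM, liver was thus higher in RNA and brain in footprints in every old animal, but with the TMM scaling of the fit footprints too were higher in liver (log2 difference -0.60, SE 0.206, edgeR adjusted p = 0.0268). The efficiency difference was 1.57 (SE 0.251, edgeR adjusted p = 0.00238, brain over liver in 3 of 3 animals), lost without old animal 1 (adjusted p = 0.143) or 2 (0.0676).

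Between the ages the members' median levels differed most in liver RNA, given as a description since the young values chose the members. The rule favours a high young liver RNA value. A lower value in old rats therefore cannot be told apart from that choice. The median old over young log2 difference was -0.54 in liver RNA-seq and 0.26 in liver footprints for the members, and -0.11 and 0.10 for the comparison transcripts. In brain it was -0.06 in RNA-seq and -0.04 in footprints, with comparison medians of 0.01 and -0.00. Without old animal 2 the liver medians of the members were -0.52 and 0.26, with comparison medians of -0.05 and 0.13. With TMM scaling the liver medians of the members were -0.42 and 0.10, with comparison medians of -0.00 and -0.05. Liver RNA was lower in old rats for 79 members, 73 with TMM scaling, and for 65.0% of comparison transcripts. It was lower by more than 2-fold for 16 members. Of the 85 members whose ratio was lower in old rats, the largest of the 4 shifts was lower liver RNA for 51, more liver footprints for 27, fewer brain footprints for 6 and more brain RNA for 1. Neither the 2-fold count nor this split was set against the comparison transcripts. Since the young liver values chose the members, nothing is read from either.

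Liver RNA of the 3 old rats lay below that of the 3 young rats without overlap for 45 members and for 20.5% of comparison transcripts, and above it for 3 and 5.39%. In liver footprints 16 members lay higher (12.7%) and 3 lower (5.57%) in old rats. In brain RNA-seq 8 lay higher (11.1%) and 12 lower (6.51%), and in brain footprints 5 higher (9.23%) and 17 lower (11.0%). The young values chose the members, so nothing is read from these counts. The members together took 0.657% to 0.821% of young and 0.406% to 0.478% of old liver RNA-seq counts. In liver footprints they took 0.165% to 0.187% in young and 0.221% to 0.292% in old rats. Liver RNA was higher in old rats for 12 members, by more than 2-fold for 2. ENSRNOT00000005383, named after its values were seen, averaged 37.3 CPM of liver RNA-seq in young rats and 185 CPM in old rats.

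The members' length-like value had a median of 565, against 469 for the comparison transcripts. In 4 bins of equal numbers of comparison transcripts, from low to high, there were 22, 15, 21 and 33 members. The 25 members with a ratio of 4 in old rats had a median of 339 and the 66 others 585. A trend of RNA-seq level with this value also differed between the ages in liver: over the 7420 transcripts of each library, young rats gave a Spearman's rho of 0.22 to 0.234 and old rats one of 0.133 to 0.187. It was 0.266 to 0.293 in all brain RNA-seq libraries. With the trend of the efficiency ratio on this value removed, an alternative added after seeing the data, the rule chose 96 transcripts, 83 of them members, and 24 members kept a ratio of 4 in old rats.

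The members divide into those with more RNA in young brain and those with more in young liver, by column sums. The 48 of the first kind had a median ratio of 4.82 in young and 3.14 in old rats, and 13 kept at least 4. The 43 of the second kind had medians of 5.09 and 2.64, and 12 kept at least 4. The old efficiency fit called 38 of the 48 and 24 of the 43. Their median footprint folds, brain over liver, were 13.4 and 3.57 in young and 10.6 and 2.65 in old rats, which is wider for the first kind. Whether the 2 kinds differ was not tested. Of all comparison transcripts 7.71% were called higher in brain efficiency, and that share was not split by kind. The division used young values that chose the members, and it depends on scaling. With TMM scaling 25 members had more RNA in young brain and 66 more in young liver.

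Spread among animals limits the members' values. The members' median SD of log2 level among young liver libraries was 0.224 in RNA-seq, against 0.158 for the comparison transcripts. In young liver footprints it was 0.272 against 0.191. In young brain it was 0.143 against 0.075 in RNA-seq and 0.149 against 0.152 in footprints. Depth also limits a few members. Young liver footprints averaged under 1 CPM for 8 of them. ENSRNOT00000006485 was the one member with a ratio not above 1 in a young animal, at 0.369 in young animal 2, where it had 0 brain footprints. It had 21, 0 and 7 footprints in young brain and 1, 1 and 3 in young liver. ENSRNOT00000046112 had 22, 12 and 13 footprints in old brain and 1, 0 and 3 in old liver, so its old ratio of 9.21 rests on 4 liver counts. Its efficiency difference, 3.30 on the log2 scale, was not called in edgeR.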

How the data were processed

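The authors deposited raw counts per transcript for each of 24 libraries of 6 animals, with a length-like value of another, undefined kind beside them. Build rn4, DESeq, TopHat2 2.0.10 and Bowtie 1.0.0.0 appear in the submitters' processing notes. How reads were assigned and which annotation was used is not given in the sources used here, so transcripts of one gene may share reads. None of the 22938 identifiers matched the RefSeq table of GRCr8 (0 matches).

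Members and lists were chosen with earlier results of these data known. Their choice used young libraries, so tests used the old ones: edgeR's robust quasi-likelihood test (version 4.0.16, under R 4.3.3, two-sided, TMM, filterByExpr with a minimum count of 10 and total of 15, Benjamini-Hochberg, adjusted p under 0.05). Efficiency was the organ by assay interaction over 12 libraries, and each assay was fitted over 6. Standard errors came from the F statistic. The efficiency fit was tested on simulated data. Alternatives were median-ratio and upper-quartile factors, DESeq2 1.42.0, other filters, an animal block and each old animal left out. Other constants, scalings and limits were tried for the rule and its repeat in old rats.

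Titles tie the libraries of one animal. Deviations from group means correlated within old animals at 0.13 to 0.52 between brain assays, 0.517 to 0.775 between liver assays, 0.0571 to 0.198 between organs in RNA-seq and -0.000665 to 0.097 in footprints. Transcripts named were the extremes of the old fits (2 at each end), of young ratio and of RNA-seq level, and those nearest the ratio of 4. No molecular identifiers are mentioned, so PCR copies may be counted as separate reads.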

Additional observations from a re-analysis of the deposited data

How the results depend on the processing

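The rule chose 91 transcripts. It chose 43 with TMM-scaled CPM (35 shared with the 91) and 198 with an RNA-seq minimum of 1 CPM, which includes all 91, and 64 to 118 under the other alternatives. Leaving out young animal 1, 2 or 3 gave 118, 89 or 98 transcripts, with 85, 78 or 78 of the 91 among them. The members with a ratio of at least 4 in old rats numbered 25, and 20 to 27 under all alternatives, 25 to 27 of them with one old animal left out.

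In old rats, 62 members were called higher in brain efficiency, 61 to 77 under the other scalings, filters, DESeq2 and the replicate block, and 28 to 57 with one old animal left out. With the animal as a replicate block the count was 67, 61 of them among the 62, and it was 54 in footprints and 25 in RNA-seq. Leaving out one old animal gave 54 to 58 members higher in brain footprints (57 with all animals) and 22 to 25 higher in brain RNA-seq (25 with all).

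Among transcripts named, the sign of the old efficiency difference turned for ENSRNOT00000005775 (0.13 without old animal 1, from -0.15 to 0.13 with one old animal left out), ENSRNOT00000033843 (-0.10 without old animal 1 and -0.41 without 2, from -0.41 to 0.84) and ENSRNOT00000042098 (-0.021 without old animal 2, from -0.021 to 0.67). None of these 3 was called under any alternative. The cause was not tested. Footprint depth differed between old animals and was lowest in old animal 1, at 5259326 counts in brain; its part in the calls was not tested.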
